A study of Drosophila melanogaster with 80 samples.

Results

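The genes described here encode the vacuolar H+-ATPase (V-ATPase) and the Na+/K+-ATPase (sodium pump) of Drosophila melanogaster. They are every gene of the deposited count table whose FlyBase symbol starts with Vha, together with Atpalpha, nrv1, nrv2 and nrv3. The rule gave 37 symbols, and 36 of them had a row among the 17697 genes of the table, while Vha44 was not analysed here. Of the 36 members, 12 encode subunits of the V1 sector, 18 subunits of the V0 sector, 2 accessory proteins and 4 the pump. Whole larvae, adult females and adult males were kept either at a constant 19 °C, which served as the control, or in a daily cycle around a mean of 19 °C that reached 27 °C at its high point and 11 °C at its low point. The regimes lasted 7 days in larvae, which were collected after 6 cycles, and 13 days in adults, which were collected after 6 and 12 cycles. Each collection took animals of both regimes at either point of the cycle, and adults received fresh food every second day. This makes 20 groups of 4 libraries, 16 libraries of larvae and 32 of each adult sex. The labels name no strain, genotype, rearing history or number of animals per library, and nothing beyond the design's word "biological" says how the replicates were kept apart, so p-values measure the spread between these libraries.

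The V-ATPase is a rotary proton pump. Its soluble V1 sector hydrolyses ATP on the A and B subunits, and the membrane-bound V0 sector carries protons through the subunit a and a ring of small c proteolipids. It acidifies lysosomes, endosomes and synaptic vesicles, and in insects it also sits in the plasma membrane of Malpighian tubules and midgut, where the proton gradient drives ion and fluid transport. The sodium pump, an alpha and a beta subunit, exports sodium and imports potassium in every animal cell and keeps the membrane potential of neurons and glia. Chill-sensitive insects are known to lose their ion balance in the cold, and ion pumps are studied for that reason in cold acclimation.

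Total counts ran, in units of 1000000, from 87.1 to 130.7 per library, with a median of 105. Levels are counts per 1000000 counts (CPM) after scaling of the libraries. The ovary marker grk had 22.05 to 33.07 CPM in females and 16.21 to 31.02 CPM in males, ranges that overlapped. The other ovary and yolk, testis, accessory gland and dosage compensation markers went with the labelled sex in the adult libraries with 1 exception. Male constant low replicate 2 at 6 cycles held 3938 CPM of the yolk protein gene Yp1, against 0.174 to 55.6 CPM in the other 31 male libraries and 3324 to 12660 CPM in females. It held male markers as well, with 534.4 CPM of Acp36DE (295.5 to 1187 CPM in the other males) and 200.4 CPM of roX1 (190.5 to 434.3 CPM). Levels between those of the sexes were seen for osk, at 294.3 CPM (850.2 to 1364 CPM in females), and Mst87F, at 260 CPM (325.7 to 575.9 CPM in males). This library was left out of all values and tests unless stated, so that the male constant group at the low point has 7 libraries.

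The levels of the V1 subunits were led by the small stalk subunit G. Compared per length, in CPM per kilobase of exon (CPM per kb), Vha13 (subunit G) stood at 550 ± 27.4 in females (SD, n = 32), 392.5 ± 31.7 in males (n = 31) and 482.5 ± 97.1 in larvae (n = 16). Vha68-2, the main catalytic A subunit, had 230 CPM per kb in females, 173 in males and 169 in larvae. Vha55, the B subunit, which is encoded by a single gene in the fly, lay close to it with 212, 159 and 166 CPM per kb in the same order. Vha26 (stalk subunit E) had 222, 178 and 165 CPM per kb and VhaSFD (regulatory subunit H) 92.5, 99.2 and 92.1. Vha14-1 (subunit F) had 234, 170 and 295 CPM per kb, next after Vha13 among the V1 members in females and larvae. Vha36-1 (subunit D) had 178, 136 and 178 CPM per kb. No value is given for subunit C, which Vha44 encodes.

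In the V0 sector Vha16-1, the major c proteolipid, was the most abundant member with 519 CPM per kb in females, 399 in males and 484 in larvae, close to Vha13 in each. VhaPPA1-1, the c'' proteolipid of the same ring, had 228.5, 186 and 283 CPM per kb, and VhaAC39-1 (subunit d, which couples the ring to V1) 149, 90.8 and 115.5. Of the 5 genes for the subunit a, which forms the proton half-channels and directs the pump to a membrane, Vha100-2 was the highest with 99.4, 75.5 and 67.9 CPM per kb. Vha100-1, known for its role in synaptic vesicles of neurons, had 49.4, 39.1 and 59.2 CPM per kb. Vha100-5 and Vha100-4 were lower, at 13.1 and 6.79 CPM per kb in females. The accessory gene VhaAC45 had 149.7, 144.6 and 166.5 CPM per kb.

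Of the pump, Atpalpha, the catalytic alpha subunit, had 158.5 CPM per kb in females, 202 in males and 106 in larvae. Among the beta subunits nrv1 was the highest in all 3, at 143, 149 and 98.2 CPM per kb. The other two differed more by sex: nrv2, known from glia and from the septate junctions of epithelia, had 16.2 CPM per kb in females and 65.4 in males, and nrv3, known from neurons, had 14.8 and 33.0. Exon lengths come from the BDGP6.54 annotation and count every annotated exon of a gene, so a gene whose long transcripts are rare is understated.

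**Figure D1:**
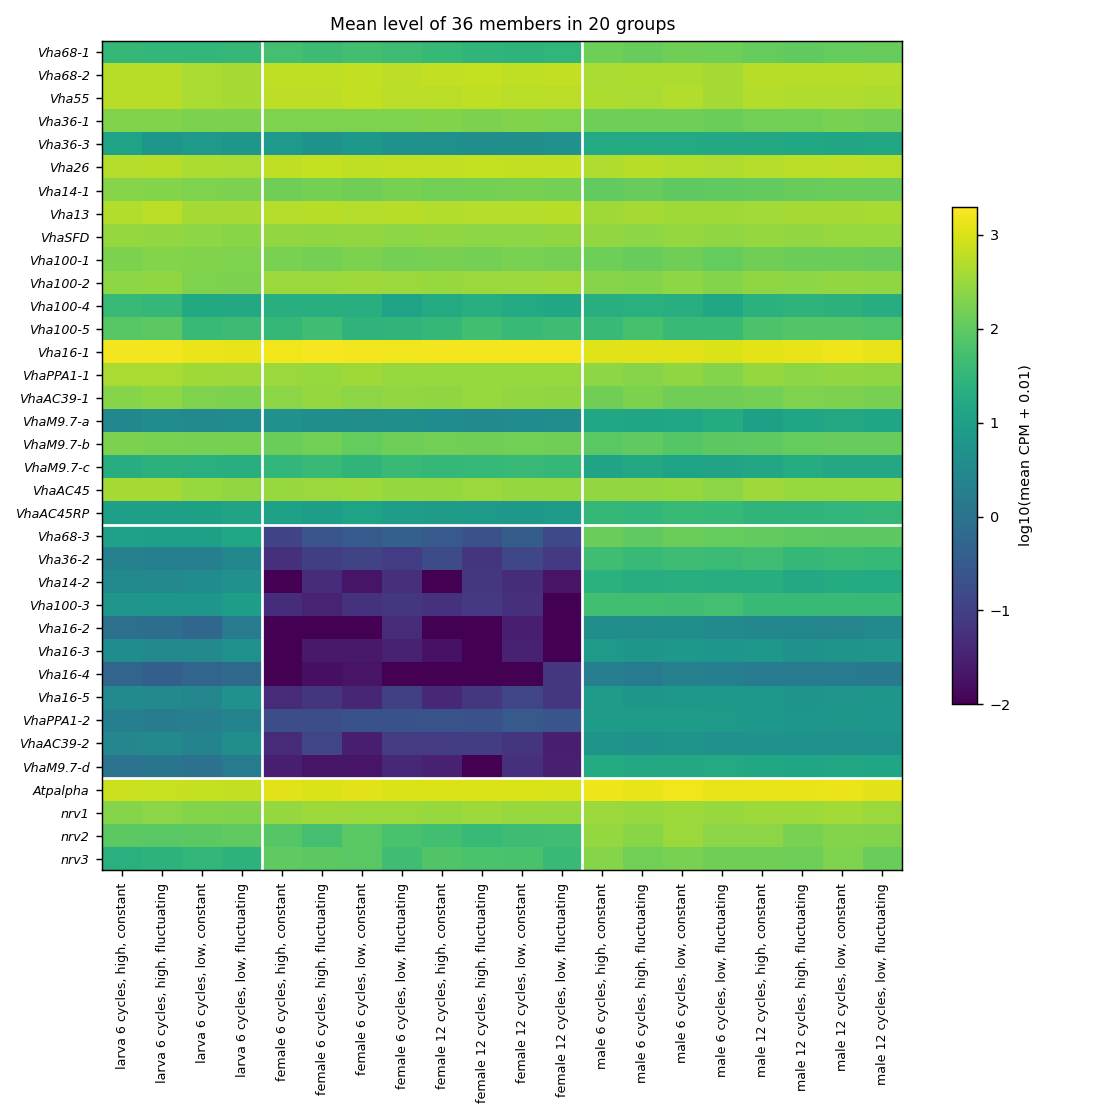
Mean level of each of the 36 members (rows) in each of the 20 groups (columns), as log10 of the mean CPM plus 0.01. The upper block holds the V-ATPase members found in both sexes, the middle block the 11 paralogues set apart as male, and the lower block the pump. The middle block is dark in all 8 female groups, intermediate in larvae and bright in males, while Vha16-1 and Atpalpha are among the brightest rows throughout.

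Adult males expressed a second set of V-ATPase genes. Members were set apart where the mean CPM of one sex was at least 10 times that of the other, and 11 V-ATPase genes met this in males and none in females. They are Vha68-3 (subunit A), Vha36-2 (D), Vha14-2 (F), Vha100-3 (a), Vha16-2, Vha16-3, Vha16-4 and Vha16-5 (c), VhaPPA1-2 (c''), VhaAC39-2 (d) and VhaM9.7-d (e). They cover 8 of the 12 subunit types measured, and no such gene exists here for B, E, G or H. The member just inside the limit was VhaPPA1-2, with 33.3 times the female mean, and the one just outside was nrv2, with 4.03 times. The largest ratio was that of Vha100-3, at 1065.

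The male levels of these paralogues were themselves unequal. Vha68-3 had 82.4 to 135 CPM in the 31 male libraries, with a mean of 107 ± 14.1, while the 32 female libraries held 828 counts of it together. Vha100-3 had 44.1 ± 6.60 CPM in males and 135 counts in all females, and Vha36-2 had 40.6 ± 5.92 CPM and 289 counts. Vha14-2 and VhaM9.7-d followed with 19.6 ± 2.93 and 15.5 ± 2.01 CPM. The 4 c paralogues stayed between 1.65 CPM (Vha16-4) and 6.50 CPM (Vha16-5), far under Vha16-1 at 1228 CPM in the same animals. Vha16-1 has the longer exons, and per kb the 4 had 2.906 (Vha16-4) to 9.735 CPM (Vha16-3), against 398.9 CPM. Since 1 sequenced fragment appears to be worth about 4 deposited counts, female sums of under 40 counts, as for Vha16-2, Vha16-3 and Vha16-4, rest on few fragments.

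Expressed as a share of its subunit per length, the male paralogue was a large part for some subunits and a small one for others. VhaM9.7-d made up 20.8% ± 3.52 of the subunit e genes in males, Vha36-2 17.5% ± 2.75 of subunit D and Vha68-3 16.8% ± 2.86 of subunit A. Vha100-3 made up 9.71% ± 2.27 of subunit a and Vha14-2 6.52% ± 1.30 of subunit F. For c'' and d the male genes reached 5.46% ± 1.23 and 4.41% ± 0.831. Subunit c has 4 male genes, none of which passed 2.33% alone (Vha16-3). Beside the 4 together, Vha16-1 held 93.45% ± 1.485 of subunit c in males. VhaPPA1-1 held 94.54% of c'' and VhaAC39-1 95.59% of d, so the male share of c as a whole was above both. The subunit A genes of females were almost wholly Vha68-2, at 94.0% ± 1.39, against 65.8% ± 5.45 in males, where Vha68-1 held another 17.4% ± 2.78. In whole animals, fewer cells of a type and less RNA per cell cannot be told apart.

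**Figure D2:**
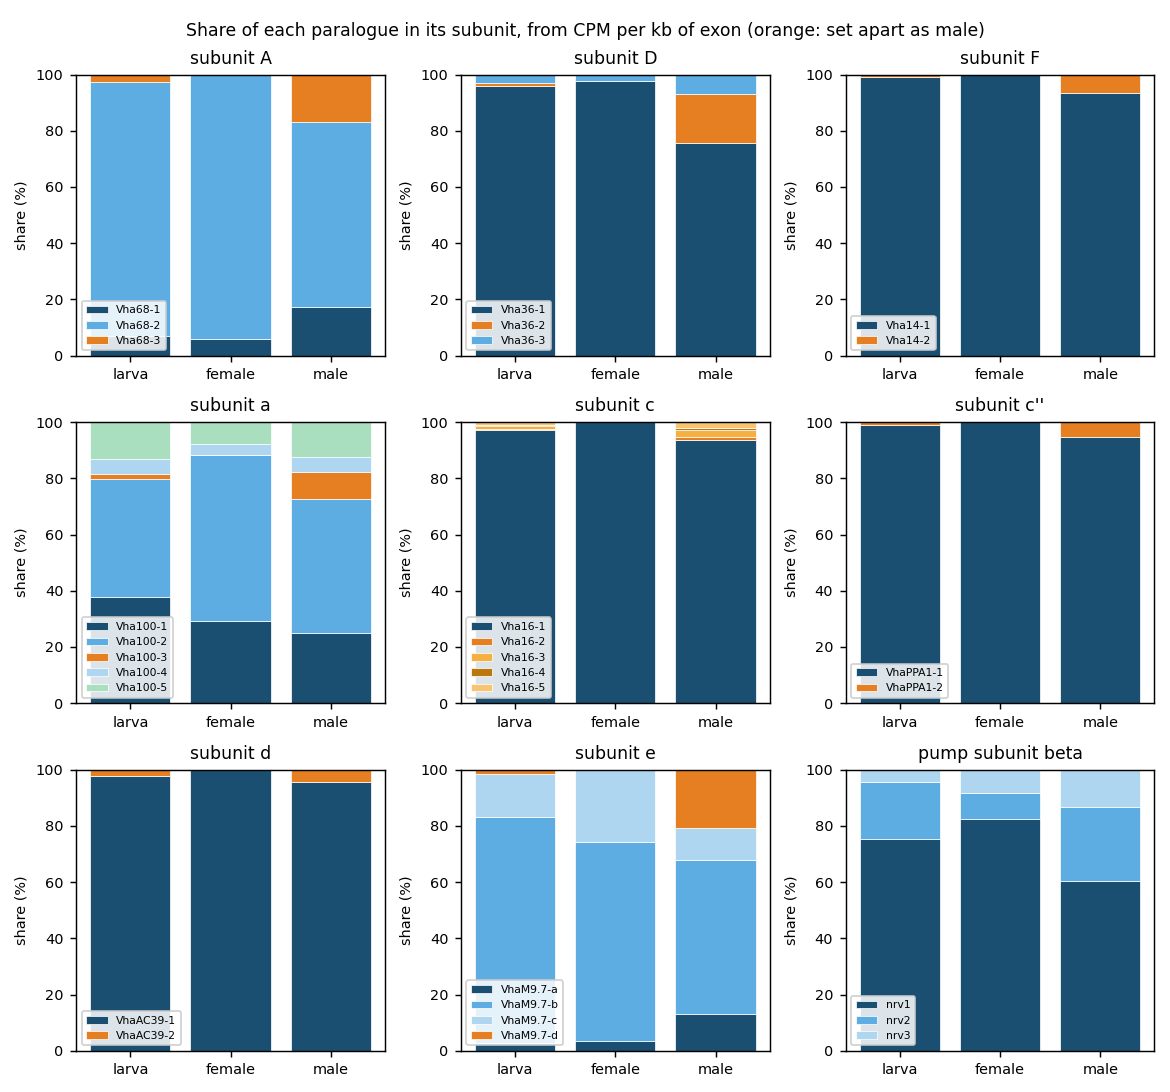
Share of each paralogue in its subunit, in percent of the summed CPM per kb of exon, as the mean over libraries of larvae (n = 16), adult females (n = 32) and adult males (n = 31). Orange segments are the 11 male paralogues, which are present in males for every V-ATPase subunit shown and reach 20.8% for subunit e. The last panel shows the pump's beta subunits, in which nrv2 rises from 9.28% in females to 26.3% in males.

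The male paralogues Vha68-3 and VhaPPA1-2 lie beside a broadly expressed relative, and some other members also have a relative as a neighbour. On chromosome 2L Vha68-2 (12974322-12978607) is followed on the same strand by Vha68-3 (12978786-12981293), and Vha68-1 (13000770-13004107) lies on the opposite strand. On 3R VhaPPA1-2 (14899606-14900277) lies next to VhaPPA1-1 (14902330-14904061), and on 3L the male genes Vha16-3 (11473291-11473972) and Vha16-2 (11474958-11475552) are neighbours. Vha100-4 (18386841-18389805) and Vha100-2 (18390323-18399169) are adjacent on 3R, and nrv1 (6778555-6786861) and nrv2 (6789770-6798862) on 2L. Exons of Vha100-1, Vha100-4, Vha100-5, Vha16-2 and VhaPPA1-2 overlap a gene on the other strand. The labels give no strand for the libraries, so these counts could include reads of the partner.

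Between the sexes, all 36 members passed the test, 23 higher and 13 lower in males, where 95.7% of all genes tested were called, 58.9% higher and 36.8% lower (edgeR quasi-likelihood test, Benjamini-Hochberg adjusted p of at most 0.05, the threshold used throughout). Because the male paralogues were chosen by this contrast, their part in the count is no result. The 4 pump genes were higher in males, nrv2 by 2.20 ± 0.02 (log2 fold change ± SE, adjusted p = 3.43e-55) and nrv3 by 1.36 ± 0.09 (adjusted p = 6.02e-20), and Atpalpha by 0.50 ± 0.02 (adjusted p = 3.65e-25). The 21 V-ATPase members of both sexes had a median of -0.19, against 0.91 for all genes, with 8 higher and 13 lower in males. VhaM9.7-c (subunit e) was the lowest at -1.09 ± 0.03 and VhaAC39-1 next at -0.58 ± 0.02. Those higher in males were led by VhaAC45RP, a relative of VhaAC45, at 2.06 ± 0.04, then VhaM9.7-a at 1.96 ± 0.05, Vha68-1 at 1.81 ± 0.03 and Vha36-3 at 1.76 ± 0.04. Another scaling of the libraries (relative log expression, RLE) moved the median of all genes by 0.176, and with it the small negative values of Vha26 (-0.17) and VhaPPA1-1 (-0.15) turned to 0.002 and 0.023. That shift is close in size to the median of -0.19 given above. VhaAC45, among the 8 called higher, had mean levels of 291.2 CPM in males and 301.4 CPM in females. Its call was lost in 1 of 4 fits that left out replicate numbers (adjusted p = 0.658), with log2 values of 0.01 to 0.11.

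The male paralogues were also read in larvae, whose sex the labels do not give. Their summed level ran from 12.8 to 84.9 CPM over the 16 larval libraries, with a median of 35.8, between the 211 to 312 CPM of adult males and the 0.180 to 1.45 CPM of females. The 14 testis markers (genes such as the meiotic regulator bol and the sperm protein gene Mst87F) moved with them from library to library. The larval library with the lowest sum of paralogues, constant high replicate 4, had 80.6 CPM of these markers, and the one with the highest, fluctuating low replicate 3, had 417 CPM. In larvae 10 of the 11 were higher than in the mean of the adult groups on the log scale (all but Vha36-2), which averages males and females that differ by the ratios above. Against the same mean 83.8% of all genes were called, 47.7% higher and 36.2% lower, and all 4 pump genes were lower in larvae, nrv3 by -1.91 ± 0.12 and Atpalpha by -0.76 ± 0.03. For nrv2 this holds only against the mean of the sexes. Its larval level of 93.67 CPM lay above the 57.93 CPM of females and below the 233.4 CPM of males.

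In larvae the fluctuating regime left nearly all members without a call. At the high point 1 member of 36 fell and none rose, where 4.37% of all genes were called, 2.1% higher and 2.26% lower. This was Vha36-3, a minor D subunit, with 9.56 to 13.2 CPM in the 4 constant and 4.58 to 8.18 CPM in the 4 fluctuating libraries, a change of -0.88 ± 0.22 (adjusted p = 0.0384). The call was lost in 9 of 16 fits that left out 1 library and in a fit of the 2 groups compared (adjusted p = 0.141). At the low point no member was called by edgeR, with none at an unadjusted p under 0.05, where 1.11% of all genes were called, 0.437% higher and 0.67% lower. The difference between the 2 effects called no member either (1.69% of all genes called, 0.895% higher and 0.793% lower), with 3 at an unadjusted p under 0.05.

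Larvae sampled at the high and low points in constant conditions differed most in the minor a subunits, by values that did not pass the main test. Vha100-4, the a subunit known from the acid-secreting copper cells of the midgut, had 33.9, 37.3, 26.7 and 49.0 CPM at the high point and 18.3, 14.0, 17.3 and 15.1 CPM at the low point. Vha100-5, another a subunit, had 72.8, 66.3, 75.0 and 121 CPM against 39.6, 39.4, 41.6 and 35.5 CPM. For both genes the lowest high-point library lay above the highest low-point library. The log2 differences were 1.20 for Vha100-4 and 1.12 for Vha100-5, and neither was called by edgeR over all 16 larvae, nor was any other member (0.417% of all genes called, 0.349% higher and 0.0683% lower, 8 members at an unadjusted p under 0.05). Vha36-3, at 0.72, was not called either. DESeq2 called 3 members, Vha100-4, Vha100-5 and Vha36-3, and a fit of the 2 groups alone called the same 3 and Vha55. No share of all genes is given for these fits. Leaving out constant high replicate 3 or fluctuating high replicate 1 gave 1 call, and leaving out fluctuating low replicate 1 gave 3. The summed level of the 6 tubule markers, led by the urate oxidase gene Uro, moved the same way, with 130 to 244 CPM at the high point and 91.5 to 103 CPM at the low point; its part in the difference was not tested.

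At the high point of the cycle, adult females had higher levels of several V0 and stalk subunits and of nrv1, and lower levels of nrv2. Of the 30 members tested in females, 8 rose and 4 fell, where 30.6% of all genes were called, 15.4% higher and 15.3% lower. The other 6 members, all male paralogues, did not pass the filter on low counts, and the 5 male paralogues that did gave no call. VhaAC39-1 rose from a median of 248 CPM (227 to 280, n = 8) in constant females to 294 CPM (276 to 306, n = 8). The 2 ranges overlapped by a few CPM, and the change was 0.24 ± 0.02 (adjusted p = 5.40e-08). Vha100-5 rose by 0.54 ± 0.11 (adjusted p = 0.000314), from 33.7 CPM (30.3 to 37.7) to 48.6 CPM (46.4 to 51.4), without overlap.

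The other rises in females at the high point were small. Vha26 rose by 0.14 ± 0.03, Vha13 by 0.10 ± 0.03 and VhaM9.7-c by 0.16 ± 0.04, with adjusted p-values of 0.000327, 0.00563 and 0.00579. The pump's beta subunits moved apart. nrv1 rose by 0.16 ± 0.03 (adjusted p = 7.30e-05), from a median of 297 CPM (286 to 321) to 334 CPM (317 to 346). nrv2 fell by 0.46 ± 0.06 (adjusted p = 8.19e-07), from 66.2 CPM (46.7 to 86.99) to 47.9 CPM (37.4 to 56.8). Its ranges overlapped because the level also differed between 6 and 12 cycles, at each of which the 4 fluctuating libraries lay below the 4 constant ones. Vha100-1 fell by 0.09 ± 0.02 (adjusted p = 0.00518), and Vha36-3 and Vha68-1 fell by 0.30 and 0.22. The last 2 calls were lost in 7 and 6 of 32 fits that left out 1 library, with adjusted p-values of up to 0.0851 and 0.0798. None of the 6 neuron markers was called in this comparison, and the ovary and yolk markers gave 4 higher and 1 lower of 9. Beside them 15.4% of all genes were higher and 15.3% lower.

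VhaAC39-1, Vha100-5, VhaM9.7-c and Vha26 rose and nrv2 fell in males at the high point too. Of 36 members, 5 rose and 10 fell, where 37.9% of all genes were called, 18.2% higher and 19.7% lower. The 5 that rose were VhaM9.7-c (0.35 ± 0.05, adjusted p = 1.01e-05), VhaAC39-1 (0.30 ± 0.05, adjusted p = 1.52e-05), Vha100-5 (0.36), VhaM9.7-b (0.23 ± 0.06) and Vha26 (0.16). VhaAC39-1 had a median of 152 CPM (131.4 to 165) in constant and 181 CPM (171 to 209) in fluctuating males, without overlap. nrv2 fell by 0.42 ± 0.04 (adjusted p = 7.81e-09), from 267 CPM (224 to 301) to 203 CPM (150 to 229), and it was again below the constant libraries at both 6 and 12 cycles. nrv1, which rose in females, changed by -0.02 ± 0.05 in males and was not called (adjusted p = 0.814). Vha68-1 fell by 0.18 ± 0.05, and VhaPPA1-1 and Vha100-1 by 0.19 and 0.18.

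The male paralogues made up the larger part of the falls at the high point. Of the 11, 6 fell and none rose, beside 19.7% of all genes lower and 18.2% higher. Their median was -0.19, against 0.00 for all genes. Vha36-2 fell by 0.35 ± 0.06 (adjusted p = 5.23e-05), from a median of 45.8 CPM (40.0 to 55.7) to 36.3 CPM (31.1 to 42.7). Vha68-3 fell by 0.22 ± 0.04 (adjusted p = 0.000151), from 113 CPM (105 to 127) to 99.3 CPM (91.5 to 105), and Vha14-2 by 0.30 ± 0.06 (adjusted p = 0.000634). Vha16-5, VhaM9.7-d and Vha16-3 were the other three, and the call of Vha16-3 was lost in 20 of 31 fits that left out 1 library. Beside the same shares of all genes, 5 of the 14 testis markers rose and 1 fell. Their sum was 2167 ± 172 CPM in constant and 2085 ± 180 CPM in fluctuating males (n = 8 each). Of the 9 accessory gland markers 4 rose and none fell, and their part in these changes was not tested.

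At the low point of the cycle the calls were nearly all falls, and they touched the pump as well. In females 1 member rose and 7 fell, where 22.9% of all genes were called, 11.4% in each direction. nrv3 changed most, from a median of 75.6 CPM (38.0 to 107) in constant females to 41.3 CPM (34.2 to 53.9), a change of -0.80 ± 0.12 (adjusted p = 2.16e-05). At 6 cycles its 4 fluctuating libraries lay below the 4 constant ones, while at 12 cycles the means were 59.3 ± 15.9 and 37.6 ± 3.32 CPM with overlapping values. Vha100-4 fell by 0.55 ± 0.10 (adjusted p = 0.000242), from 20.2 CPM (13.3 to 23.3) to 12.5 CPM (10.8 to 20.5). nrv2 fell by 0.24 ± 0.06 (adjusted p = 0.00214), from 61.9 CPM (42.0 to 99.7) to 52.4 CPM (45.4 to 63.6). At 12 cycles alone its difference was 0.136 and not called, with means of 44.5 ± 2.53 CPM in constant and 47.4 ± 2.53 CPM in fluctuating females. Atpalpha fell by 0.12 ± 0.04 (adjusted p = 0.0134), from 1042 CPM (961 to 1271) to 1015 CPM (869 to 1069).

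Smaller falls in females were those of Vha100-1 (-0.17 ± 0.02, adjusted p = 1.44e-05), VhaPPA1-1 (-0.14 ± 0.03) and VhaAC45 (-0.12 ± 0.03), and the only rise was that of VhaM9.7-b (0.13 ± 0.03). At 12 cycles alone VhaPPA1-1 and VhaAC45 turned to 0.034 and 0.057, neither of them called. Vha100-1 had 162 to 183 CPM in constant and 149 to 162 CPM in fluctuating females, ranges that touched at one end. The neuron markers gave no call in this comparison, and their sums were 218 ± 33.6 and 235 ± 45.6 CPM in constant and fluctuating females. Of the 6 tubule markers 2 fell, the diuretic hormone receptor gene CapaR by 0.86 ± 0.16 and Uro by 1.02 ± 0.27, and the chloride channel gene SecCl rose by 0.40 ± 0.08. Beside them 11.4% of all genes were called in each direction. The summed level of the tubule markers was 67.6 ± 12.5 CPM in constant and 48.7 ± 8.35 CPM in fluctuating females, and its part in the fall of Vha100-4 was not tested.

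In males at the low point no member rose and 10 fell, where 27.3% of all genes were called, 12.3% higher and 15.0% lower. Fewer members were called at 12 cycles alone, a fit with fewer libraries, as given in the section on processing. No share of all genes is given for that fit, so the drop is no result about the members. nrv2 fell by 0.26 ± 0.04 (adjusted p = 2.53e-05), from a median of 215 CPM (190 to 330, n = 7) to 215 CPM (194 to 250, n = 8). The medians are alike because the 7 constant libraries split by cycles, with means of 322 ± 13.2 at 6 and 205 ± 10.4 CPM at 12 cycles, against 237 ± 10.3 and 199 ± 4.42 CPM in the fluctuating groups. Atpalpha fell by 0.24 ± 0.07 (adjusted p = 0.0143), from 1505 CPM (1307 to 1559) to 1272 CPM (1075 to 1408), and nrv1 by 0.19 ± 0.05 (adjusted p = 0.00848), from 352 CPM (302 to 405) to 311 CPM (296 to 334). nrv3, at -0.47 with an SE of 0.22, did not pass the test (adjusted p = 0.118).

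The V-ATPase falls in males at the low point were those of Vha100-1 (-0.23 ± 0.05, adjusted p = 0.00199), VhaAC45 (-0.19 ± 0.05), VhaPPA1-1 (-0.20 ± 0.06), Vha55 (-0.22 ± 0.06), Vha100-2 (-0.20 ± 0.06), Vha100-4 and the male paralogue Vha68-3. Vha100-4 fell by 0.48, from 23.3 CPM (19.3 to 27.1) to 15.97 CPM (8.03 to 25.2). In females the same gene fell by 0.55, as given above. Vha68-3 changed by -0.12 and lost its call in 14 of 31 fits that left out 1 library and when the library set aside was put back (-0.06, adjusted p = 0.477). CapaR and Uro fell in males too, by 0.81 ± 0.10 and 1.23 ± 0.27, while the other tubule markers are not given for this comparison. The summed tubule markers were 240 ± 87.9 CPM in constant and 160 ± 33.4 CPM in fluctuating males. Uro had the highest mean of these markers over all males, at 91.2 CPM, so the sum leans on it. Of the accessory gland markers 5 rose and none fell, beside 12.3% of all genes higher and 15.0% lower. The part of the tubule or accessory gland markers in these falls was not tested.

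**Figure D3:**
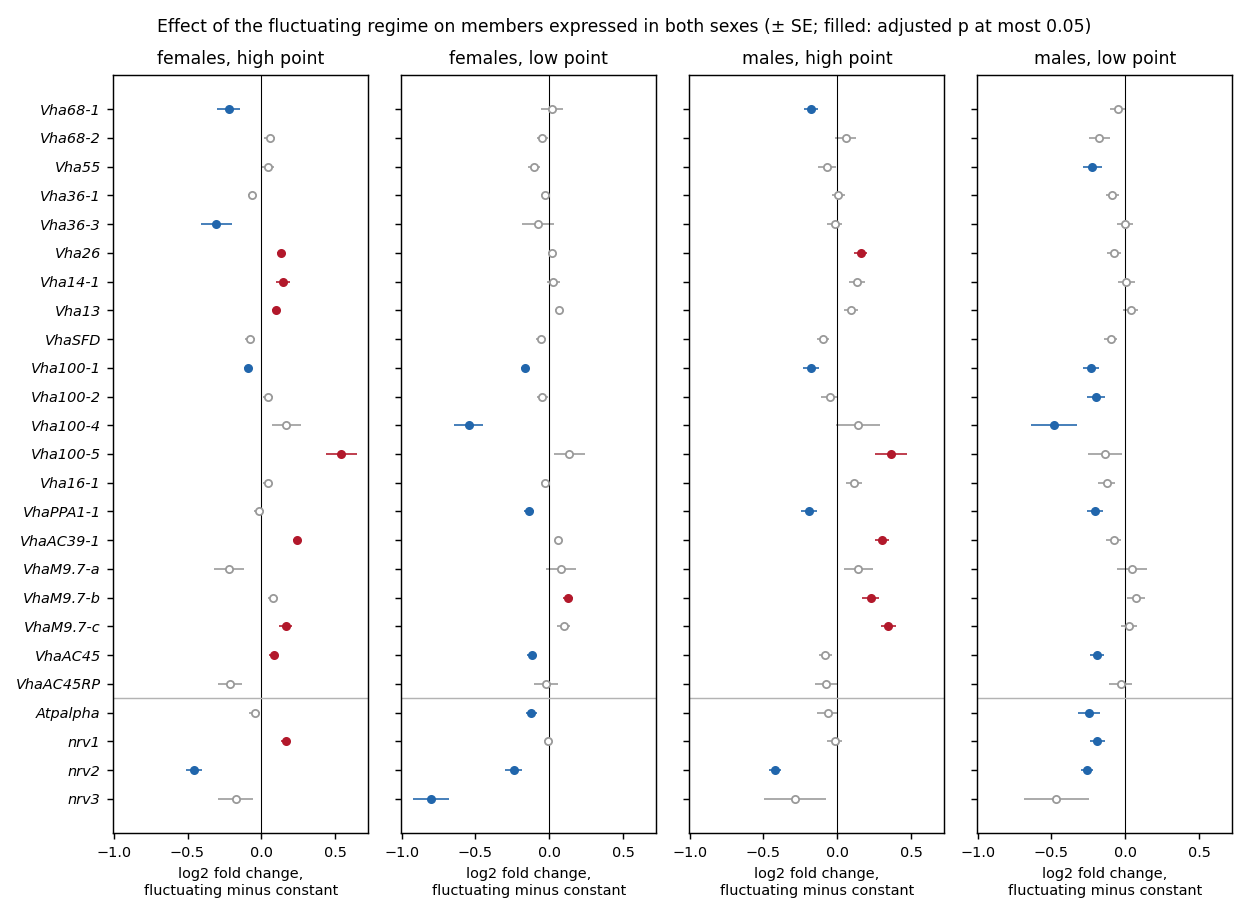
Log2 fold change (± SE) of the 25 members found in both sexes, fluctuating minus constant, in adult females and males at the high and the low point. Filled points passed the test (red higher, blue lower) and open grey points did not. nrv2 and Vha100-1 are blue in all 4 panels, while VhaAC39-1, Vha100-5, VhaM9.7-c and Vha26 are red in both high-point panels and open at the low point.

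Across the 6 comparisons of the regimes in larvae and adults, nrv2 and Vha100-1 were each called lower in the 4 of adults, with 6 and 12 cycles averaged. VhaPPA1-1 was called lower in 3, and VhaAC45 in 3, higher in females at the high point and lower in both sexes at the low point. At a single number of cycles nrv2, VhaPPA1-1 and VhaAC45 turned in females at the low point, as given above, and VhaAC45 at the high point was -0.03 at 6 cycles alone. In females the effect on Vha100-1, averaged over points, was higher by 0.166 at 12 than at 6 cycles (edgeR, adjusted p = 0.000655). The high- and low-point comparisons use different control libraries, and those of the 2 sexes do as well. In adults the direct test of a difference between the sexes called 3 members at the high point, where 15.2% of all genes were called, 8.5% higher and 6.69% lower. It called none at the low point, where 6.73% of all genes were called, 2.38% higher and 4.35% lower, with 3 members at an unadjusted p under 0.05. VhaM9.7-c rose more in males than in females by 0.22 ± 0.07 (adjusted p = 0.0286), and VhaM9.7-a differed by 0.40 ± 0.14 (adjusted p = 0.0420). Each of these calls was lost in 3 of 4 fits that left out the libraries of 1 replicate number at 6 and 1 at 12 cycles, with adjusted p-values of up to 0.283 and 0.192. That of VhaM9.7-a was also lost when the library set aside was put back (adjusted p = 0.0520). For Vha14-2 all 8 constant females at the high point held 0 counts, so its fitted difference is no measure of size. Fitted by DESeq2, the same comparisons called 7 and 1 members, with no share of all genes given for that fit.

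**Figure D4:**
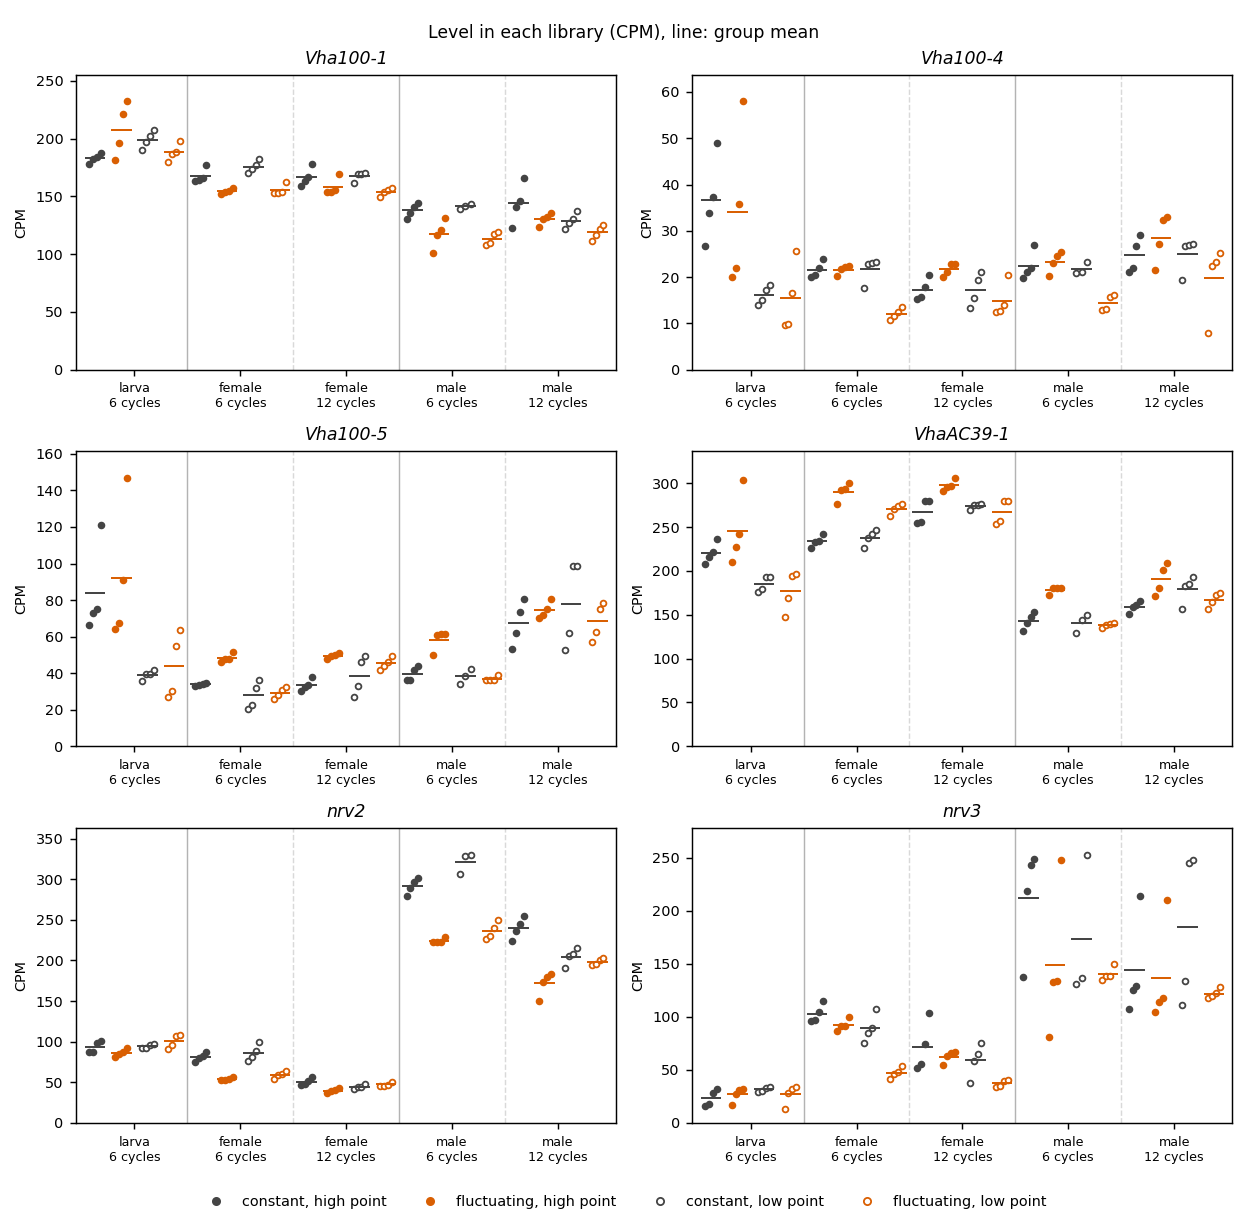
Level in CPM of 6 members in every library used, by stage or sex and number of cycles. Grey points are constant and orange points fluctuating animals, filled at the high point and open at the low point, and the line is the group mean. nrv2 is lower in orange than in grey at 6 cycles in both sexes, nrv3 is lower at the low point in fluctuating females, and Vha100-4 is lowest at the low point of fluctuating adults, with means of 12.1 CPM in females and 14.5 CPM in males at 6 cycles.

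Whether the treatment effect differed between the 2 points of the cycle was tested directly. In females 6 members had a higher effect at the high than at the low point and none a lower one, where 20.0% of all genes were called, 9.78% higher and 10.2% lower. They were Vha100-4 (0.72 ± 0.14, adjusted p = 0.000589), nrv3 (0.63 ± 0.17, adjusted p = 0.00897), VhaAC45 (0.20 ± 0.04), VhaAC39-1 (0.18 ± 0.03), nrv1 (0.17 ± 0.04) and Vha26 (0.11 ± 0.04). In males 6 were higher and 2 lower, where 23.5% of all genes were called, 12.7% higher and 10.8% lower. Vha100-4 (0.62 ± 0.22, adjusted p = 0.0365), VhaAC39-1 (0.38 ± 0.07, adjusted p = 0.000131) and Vha26 (0.23 ± 0.07) were called here too, with Vha100-5 (0.50 ± 0.16), VhaM9.7-c (0.32 ± 0.08) and Vha16-1 (0.24 ± 0.08). The male paralogue Vha16-5 was lower by -0.34 ± 0.11, and nrv2 by -0.16 ± 0.06. The male calls of Vha100-4, nrv2, Vha16-1 and Vha16-5 were lost in 14, 11, 7 and 3 of 31 fits without 1 library, and the female call of Vha26 in 6 of 32. In the same test the tubule markers gave 3 higher and 1 lower of 6 in females (median 0.39) and 2 higher and 1 lower in males (median 0.22), and their part was not tested. Leaving out female constant low replicate 1 at 6 cycles raised the female count to 11, and leaving out male fluctuating low replicate 1 at 6 cycles lowered the male count to 5.

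Constant adults collected at the high point were also compared with those collected at the low point. In females 3 members were higher at the high point and none lower, where 21.1% of all genes were called, 10.9% higher and 10.3% lower. They were VhaM9.7-b (0.15 ± 0.03), Vha68-1 (0.26 ± 0.08) and Vha36-1 (0.09 ± 0.03). VhaM9.7-b was at -0.004 at 12 cycles alone, and leaving out female constant low replicate 4 at 6 cycles gave 5 calls. In males no member was called by edgeR, where 7.46% of all genes were called, 3.31% higher and 4.16% lower, with 9 members at an unadjusted p under 0.05. DESeq2 called 3 members, with no share of all genes given for that fit. At 12 cycles alone 10 members were called in males, where 16.5% of all genes were, and with the library set aside put back 4 were, against 9.64% of all genes.

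In females the treatment effect, averaged over both points, was compared between 12 and 6 cycles. The effect at 12 cycles was above that at 6 cycles for 14 members and below it for 2 of the 30 tested, where 31.1% of all genes were called, 15.3% higher and 15.8% lower. The 14 included both ATP-binding subunits, Vha55 (0.27 ± 0.06) and Vha68-2 (0.25 ± 0.05), as well as VhaPPA1-1 (0.28 ± 0.05), Vha100-2 (0.25 ± 0.05), VhaAC45 (0.29 ± 0.04), VhaSFD (0.23 ± 0.05), Atpalpha (0.23 ± 0.05) and nrv2 (0.55 ± 0.08). The adjusted p-values of these ran from 1.37e-05 for nrv2 to 0.00117 for Atpalpha. The 2 that went the other way were VhaM9.7-c (-0.28 ± 0.06) and VhaM9.7-b (-0.15 ± 0.05), the call of which was lost in 8 of 32 fits without 1 library.

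By point, the summed V-ATPase members of both sexes had, in females at the high point, 6155 ± 142 CPM in constant and 6408 ± 170 CPM in fluctuating libraries at 6 cycles (n = 4 in each group), and 6190 ± 217 and 6392 ± 116 CPM at 12 cycles. At the low point the sums were 6325 ± 249 and 6117 ± 140 CPM at 6 cycles, and 6154 ± 114.8 and 6216 ± 284 CPM at 12 cycles. nrv2 in females at the high point had 81.2 ± 4.75 CPM in constant and 54.3 ± 1.79 CPM in fluctuating libraries at 6 cycles, and 50.6 ± 4.61 and 39.9 ± 2.39 CPM at 12 cycles (n = 4 each). Vha55 at the low point had 653 ± 71.4 and 572 ± 15.9 CPM at 6 cycles, and 562 ± 20.8 and 568 ± 28.0 CPM at 12 cycles. Tested at 6 cycles alone, the low point called 17 members in females, 3 higher and 14 lower, where 26.4% of all genes were called, 12.8% higher and 13.7% lower. At 12 cycles alone it called 2, with 1 in each direction, where 13.4% of all genes were called, 7.46% higher and 5.92% lower. In males the same test of 12 against 6 cycles called no member by edgeR (0.483% of all genes called, 0.314% higher and 0.169% lower, 2 members at an unadjusted p under 0.05).

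From 6 to 12 cycles, with both regimes averaged, the V-ATPase of males moved in opposite directions by class. Of the 36 members 15 rose and 15 fell, where 46.9% of all genes were called, 24.2% higher and 22.6% lower. Among the 21 V-ATPase members of both sexes 15 rose and 4 fell, with a median of 0.17, while 10 of the 11 male paralogues fell and none rose, with a median of -0.27, against 0.00 for all genes. Vha100-5 rose most, by 0.75 ± 0.08 (adjusted p = 1.64e-08), from a median of 38.9 CPM (33.9 to 61.5, n = 15) to 72.7 CPM (52.6 to 98.8, n = 16). Vha68-2 rose by 0.32 ± 0.05, from 422 CPM (350 to 492) to 534 CPM (440 to 633). Vha16-1 rose by 0.25 ± 0.04 and VhaM9.7-c by 0.30 ± 0.04.

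Of the male paralogues Vha100-3 fell most firmly, by 0.38 ± 0.03 (adjusted p = 1.01e-09), from a median of 49.8 CPM (44.4 to 57.6) to 37.8 CPM (35.3 to 44.2). The 2 sets of libraries did not overlap. Vha68-3 fell by 0.27 ± 0.03 (adjusted p = 3.21e-08), from 114.8 CPM (99.4 to 135) to 97.6 CPM (82.4 to 111), and VhaAC39-2 was the one paralogue without a call. The summed paralogues had 281 ± 19.1 CPM at 6 and 233 ± 19.7 CPM at 12 cycles, and the summed V-ATPase members of both sexes 4685 ± 272 and 5364 ± 373 CPM. Of the 14 testis markers 9 fell and none rose, beside 22.6% of all genes lower and 24.2% higher. The sums of these markers were 2263 ± 121 and 1974 ± 167 CPM. Of the 9 accessory gland markers 8 fell and 1 rose, and the tubule markers gave 4 higher and 1 lower of 6. Their part in these changes was not tested, and cycles cannot be told apart from the age of the adults.

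**Figure D5:**
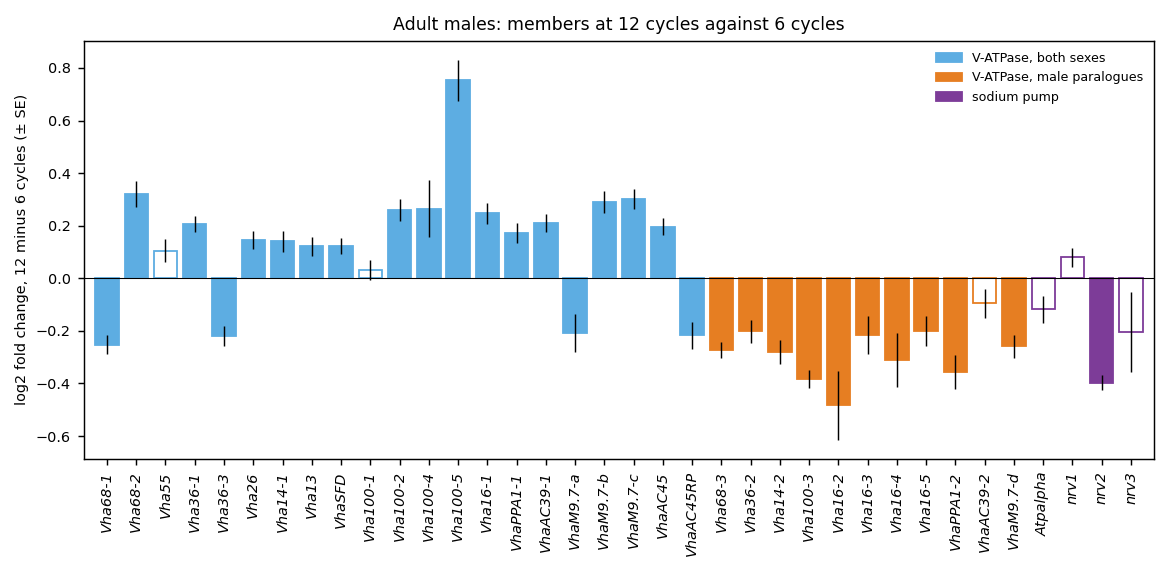
Log2 fold change (± SE) of each member in adult males, 12 minus 6 cycles, with regimes and points averaged (15 and 16 libraries). Filled bars passed the test. Most blue bars (V-ATPase of both sexes) point up and all orange bars (male paralogues) point down, and nrv2 is the one pump gene with a filled bar.

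The 4 V-ATPase members of both sexes that fell in males were Vha68-1, Vha36-3, VhaM9.7-a and VhaAC45RP, with changes of -0.25, -0.22, -0.21 and -0.22. They are also the ones with the highest male-to-female ratios in that class, from 3.0 for Vha36-3 to 3.69 for VhaAC45RP. The same 4 fell from 6 to 12 cycles in females, by 0.63 ± 0.05, 0.47 ± 0.07, 0.30 ± 0.07 and 0.48 ± 0.06. In females 3 members rose and 11 fell in all, where 38.7% of all genes were called, 20.6% higher and 18.0% lower. nrv2 fell by 0.62 ± 0.04 (adjusted p = 1.40e-12), from a median of 69.6 CPM (52.8 to 99.7, n = 16) to 45.6 CPM (37.4 to 56.9, n = 16). nrv3 fell by 0.52 ± 0.08 and Atpalpha by 0.15 ± 0.03. Beside them 5 of the 6 neuron markers fell and 6 of the 9 ovary and yolk markers rose, and their part was not tested. In males nrv2 fell by 0.40 ± 0.03 (adjusted p = 2.13e-11), from 250 CPM (223 to 330) to 202 CPM (150 to 255), while Atpalpha, nrv1 and nrv3 were not called.

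Other genes of the pathway were counted by lists. Of the 5 assembly and control genes (the RAVE-type factors Rbcn-3A and Rbcn-3B, the accessory ATP6AP2, the transcription factor Mitf and mtd), females at the high point had 1 higher, ATP6AP2 (0.08 ± 0.03), and at the low point 1 higher, Mitf (0.18 ± 0.04). Beside these, 15.4% of all genes were higher and 15.3% lower at the high point, and 11.4% in each direction at the low point. Males had none at the high point, beside 18.2% of all genes higher and 19.7% lower. At the low point 1 was lower in males, Rbcn-3B (-0.35 ± 0.07), beside 12.3% of all genes higher and 15.0% lower. From 6 to 12 cycles 3 rose in males, beside 24.2% of all genes, led by Mitf (0.21 ± 0.03), which controls V-ATPase genes in the fly. In the test of 12 against 6 cycles in females, Rbcn-3A (0.43 ± 0.07) and Rbcn-3B (0.27 ± 0.07) were among 3 with a higher effect. Mitf (-0.37 ± 0.06) had a lower one, beside 15.3% of all genes higher and 15.8% lower.

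The 26 genes of ion and water transport, some of which are also among the tubule markers, were counted in the same way, and no test of the list was made. In females at the high point 2 rose and 9 fell, beside 15.4% of all genes higher and 15.3% lower, led by the potassium channel Irk2 (-0.51 ± 0.09), the cation/proton antiporter Nha1 (-0.33 ± 0.06) and the sodium/proton exchanger Nhe1 (0.16 ± 0.03). In males 3 rose and 11 fell, beside 18.2% and 19.7% of all genes, led by Irk2 (-0.37 ± 0.06), ClC-c (-0.24 ± 0.05) and the calcium pump SERCA (-0.31 ± 0.06). At the low point 6 were higher and 4 lower in females, beside 11.4% of all genes in each direction, led by the potassium/chloride cotransporter kcc (-0.23 ± 0.03). In males 4 were higher and 7 lower there, beside 12.3% and 15.0% of all genes, led by CapaR and the carbonic anhydrase CAH2 (-0.59 ± 0.08). The 4 pump relatives measured had summed means of 51.2 to 62.9 CPM in males and 0.164 to 0.180 CPM in females at 6 and 12 cycles. Of them JYalpha rose at both points in males, by 0.45 ± 0.06 at each, while Atpalpha fell at the low point. In males 3 of the 4 fell from 6 to 12 cycles, beside 22.6% of all genes. In larvae the transport list gave 1 higher and 2 lower at the high point, beside 2.1% and 2.26% of all genes. At the larval low point 2 were lower, beside 0.67% of all genes.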

How the data were processed

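RNA of whole animals was enriched with oligo(dT) beads before sequencing, per the labels' protocols. The submitters' processing notes name FastQC, Trimmomatic, HISAT2, StringTie and the genome build BDGP6; their versions are not given in these sources. The authors deposited estimated counts per gene, whole numbers without scaling. Of values from 1 to 24, 36.8% are multiples of 4, against 25% if spread evenly, so about 4 counts appear to stand for 1 fragment, and counting error is larger than the totals imply. Of 17697 IDs, 17559 matched a symbol. Coordinates are 1-based, from BDGP6.54.

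The main test was edgeR's (4.0.16, in R 4.3.3) quasi-likelihood test with TMM scaling, a filterByExpr minimum count of 10 and Benjamini-Hochberg adjustment over all genes tested. Larvae, females and males were fitted apart, and adults or all animals together for comparisons across them, with 6 and 12 cycles weighted equally. CPM use TMM factors over all 80 libraries. Full statistics go, in each comparison, to at most the 8 called members with the lowest p, and names in other lists to the 3 called genes with the lowest p. A few members without a call, and tubule markers, were named after their values were seen. The members and lists were chosen with earlier results of these data known. Alternatives were DESeq2 1.42.0, RLE scaling, no filter, counts divided by 4, a replicate block, 6 or 12 cycles alone, the compared groups alone, the set-aside library restored, and each library left out. The tests were tested on simulated data.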

Additional observations from a re-analysis of the deposited data

Results flagged for a closer look

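Single libraries stood apart from the other 3 of their group in 18 of 286 group tests over 22 members (Dixon's test); chance gives about 1 in 20. Among V-ATPase genes in larvae, constant high replicate 4 had 1887 CPM of Vha16-1 and 415.6 CPM of VhaAC45, above the others. In fluctuating low larvae, replicate 3 had the lowest nrv1, 172.3 CPM. In males after 6 cycles, fluctuating high replicate 1 was low for Vha55 (370.6 CPM) and Vha100-2 (167.9 CPM), and replicate 4 was high for nrv2 (228.9 CPM). Constant high replicate 2 had 1181 CPM of Vha16-1, and fluctuating low replicate 4 had 1408 CPM of Atpalpha. In males after 12 cycles, fluctuating high replicate 6 had 210.5 CPM of nrv3 and replicate 8 had 6.159 CPM of Vha16-5. Constant high replicate 8 had 8.981 CPM of VhaPPA1-2, replicate 7 had 4.377 CPM of VhaAC39-2, and constant low replicate 6 had 5.51 CPM of VhaAC39-2. In females Vha68-2 was high in fluctuating high replicate 7 at 12 cycles (689.7 CPM). Vha100-1 stood apart in 4 female groups: constant high replicate 3 at 6 cycles (177.0 CPM), constant low replicate 8 at 12 cycles (161.8 CPM), fluctuating high replicate 5 at 12 cycles (169.2 CPM) and fluctuating low replicate 2 at 6 cycles (162.4 CPM).

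Treatment effects differed between points, cycles or sexes for 33 results, by edgeR's test of the difference (log2). In females, effects were higher at the high than at the low point for Vha26 (0.115), Vha100-4 (0.717), VhaAC39-1 (0.179), VhaAC45 (0.204), nrv1 (0.173) and nrv3 (0.628). In males, the same difference was 0.232 for Vha26, 0.621 for Vha100-4, 0.5 for Vha100-5, 0.238 for Vha16-1, 0.378 for VhaAC39-1 and 0.321 for VhaM9.7-c, with -0.344 for Vha16-5 and -0.16 for nrv2.

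In females, effects at 12 minus 6 cycles differed among V1 genes for Vha68-1 (0.286), Vha68-2 (0.251), Vha55 (0.268), Vha36-3 (0.603), Vha13 (0.128) and VhaSFD (0.234). In V0 they differed for Vha100-1 (0.166), Vha100-2 (0.254), Vha100-4 (0.595), VhaPPA1-1 (0.28), VhaM9.7-b (-0.152) and VhaM9.7-c (-0.275). The others were VhaAC45 (0.291), VhaAC45RP (0.497), Atpalpha (0.228) and nrv2 (0.554). Between the sexes at the high point, males minus females, VhaM9.7-a differed by 0.403 and VhaM9.7-c by 0.216. The fitted -5.659 of Vha14-2 sets a group of females with 0 counts in all 8 libraries and is no measure of size.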

How the results depend on the processing

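With 1 library left out no called member reversed. Counts of called members ran from 0 to 1 for larvae at the high point, 0 to 3 for larval constant high minus low, 3 to 5 and 5 to 11 for female constant high minus low and the difference of effects between points, and 0 to 3 and 5 to 11 for the same in males. For the difference between the sexes they ran from 1 to 3 at the high point and 0 to 1 at the low point, where leaving out replicates 3 or 7 gave 1 at each, and replicates 2 or 6 gave 1 at the low point. The cause of the changes below was not tested.

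DESeq2 called 3 members for larval, 5 for female and 3 for male constant high minus low, and 7 and 1 for the difference between the sexes at the high and low point. The compared groups alone gave 0 for larvae at the high point, 4 for larval and 1 for female constant high minus low. Restoring the set-aside male library gave 4 for male constant high minus low. At 6 cycles alone the counts were 17 for females at the low point, 9 for males at the high point and 2 for the male difference between points. At 12 cycles alone they were 2 for females at the low point, 0 for female and 10 for male constant high minus low, 2 and 4 for the female and male difference between points, 8 for males at the high point and 1 at the low point. Shares of all genes are given above for females at the low point. They are also given for male constant high minus low at 12 cycles alone and with the library restored. The other counts of alternative fits have no such share and are no result about the members.

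Directions reversed at 6 cycles alone for Vha100-4 (-0.05) and VhaAC45 (-0.03) in females at the high point, Vha100-5 (-0.004) at the low point and nrv2 (0.106) in the male difference between points. At 12 cycles alone they reversed for nrv2 (0.136), VhaAC45 (0.057) and VhaPPA1-1 (0.034) in females at the low point and VhaM9.7-b (-0.004) in female constant high minus low. Without reversing, 20 calls were lost at 6 cycles alone and 37 at 12 cycles alone, in fits with fewer libraries. RLE scaling and DESeq2 reversed male minus female for Vha26 (0.002) and VhaPPA1-1 (0.023).

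Libraries were taken as unpaired in the main test, and correlations of same-numbered deviations cannot settle whether they were. These ran from -0.14 to 0.099 between the sexes, from -0.355 to 0.308 between larval regimes and from -0.218 to 0.199 between male regimes. Of the regime pairs, 3 of 8 in larvae, 4 of 15 in males and 0 of 16 in females were over 0.1. With a replicate block the counts were 2 for larval and 3 for male constant high minus low, and 1 at each point for the difference between the sexes. No paired analysis was possible for 12 minus 6 cycles because the groups share no number, nor for larvae minus the mean of all adults because the adults at 12 cycles carry numbers that no larva has.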

Other observations

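In males nrv3 fell into 2 separate ranges. Of the 31 libraries 9 had 210.5 to 253.1 CPM and 22 had 81.2 to 149.6 CPM, with none between. The 9 were 7 constant and 2 fluctuating libraries, and the 22 were 8 constant and 14 fluctuating ones. The summed neuron markers were 543 to 666 CPM (median 579) in the 9 and 225 to 713 CPM (median 616) in the 22. The ranges were seen in the data and no test was made on them.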
